A study of Mus musculus with 30 samples.

Results

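The livers of control CD-1 mice, an outbred stock, were compared between birth and weaning. Total RNA from frozen liver was sequenced, and the labels do not describe how messenger RNA was selected. The newborn group was 4 control females at postnatal day (PND) 1 and the weanling group was 3 control females at PND21, 7 of the 30 libraries of a study of cadmium given during gestation (cadmium chloride at 500 ppb in the exposed groups). The labels name the exposure of these 7 animals only as control, and they do not say which animals shared a litter, so p-values measure the spread between these samples and each age can rest on fewer independent litters than animals. All 14259 genes of the deposited tables were taken, and 14233 of them reached 10 normalised read counts in at least 3 of the 7 libraries and were tested. Levels are normalised read counts, that is, reads divided by a size factor for each library, listed in the order of replicates 1 to 4 at PND1 and 1 to 3 at PND21. Differences are log2 fold changes of PND21 over PND1 (± SE) from limma on log2(normalised read count + 1), and a gene was counted as changed at a Benjamini-Hochberg adjusted p under 0.05 over all tested genes.

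The liver is a blood-forming organ before birth, and its hepatocytes then divide and secrete fetal plasma proteins such as alpha-fetoprotein. After birth blood formation moves to the bone marrow, hepatocytes slow their division, and they take up the adult work of the organ: urea synthesis, bile acid synthesis, clearance of drugs, and a division of labour between cells near the portal vein and cells near the central vein. Suckling pups live on milk, which is rich in fat and poor in carbohydrate, and at weaning they change to a diet rich in carbohydrate.

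The 2 ages differed in 7527 of the 14233 tested genes (52.9%). At PND21, 3701 genes were higher (26% of those tested) and 3826 were lower (26.9%). With the further condition of a change of at least 2-fold, 1994 genes were higher (14%) and 2582 were lower (18.1%), and 259 and 574 of the called genes were at least 10-fold higher and lower. The 4 PND1 libraries did not overlap the 3 PND21 libraries in 7867 genes, or 55.3% of those tested. Pearson correlations across genes were 0.948 to 0.970 within PND1, 0.961 to 0.971 within PND21 and 0.762 to 0.790 between the ages, and the first principal component, which separated the ages, held 79.2% of the variance. Libraries held 24.4 to 27.8 M reads at PND1 and 22.03 to 24.6 M reads at PND21, summed over the genes the authors deposited. Total reads and shares of reads are over these genes throughout. The size factors of all 14 PND1 and PND21 libraries of the study had been set together. Scaling by total reads in place of the deposited size factors moved the median gene by -0.51 on the log2 scale and changed the split of calls from 49.2% higher and 50.8% lower to 1721 higher (20.7%) and 6586 lower (79.3%). The 100 most abundant genes took 41.7% to 47.2% of the reads at PND1 and 50.8% to 53.7% at PND21 (exact two-sided permutation p = 0.0571, the smallest that 4 against 3 libraries allow, 0.0762 adjusted over 4 shares). The hepatocyte markers Alb, Apoa1, Ttr and Cps1 were high in all 7 libraries, with at least 9221 normalised read counts each. The marker set also held Apob, Serpina1a, Tat and Hnf4a, and levels of the first 3 are not given here. Hnf4a had 815 to 1492 normalised read counts per kilobase of exon at PND1 and 1766 to 2589 at PND21. In whole tissue, fewer cells of a type and less RNA per cell cannot be told apart. Changes below are relative to the deposited scaling, and under total reads no list had more rises or fewer falls. Both values are given where the median of a reported list changes sign or its balance of rises and falls turns. Counts of calls in a list are to be read beside the shares over all tested genes given above. Members behind a count of 5 or fewer are mostly named, some of them after their values were seen.

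**Figure D1:**
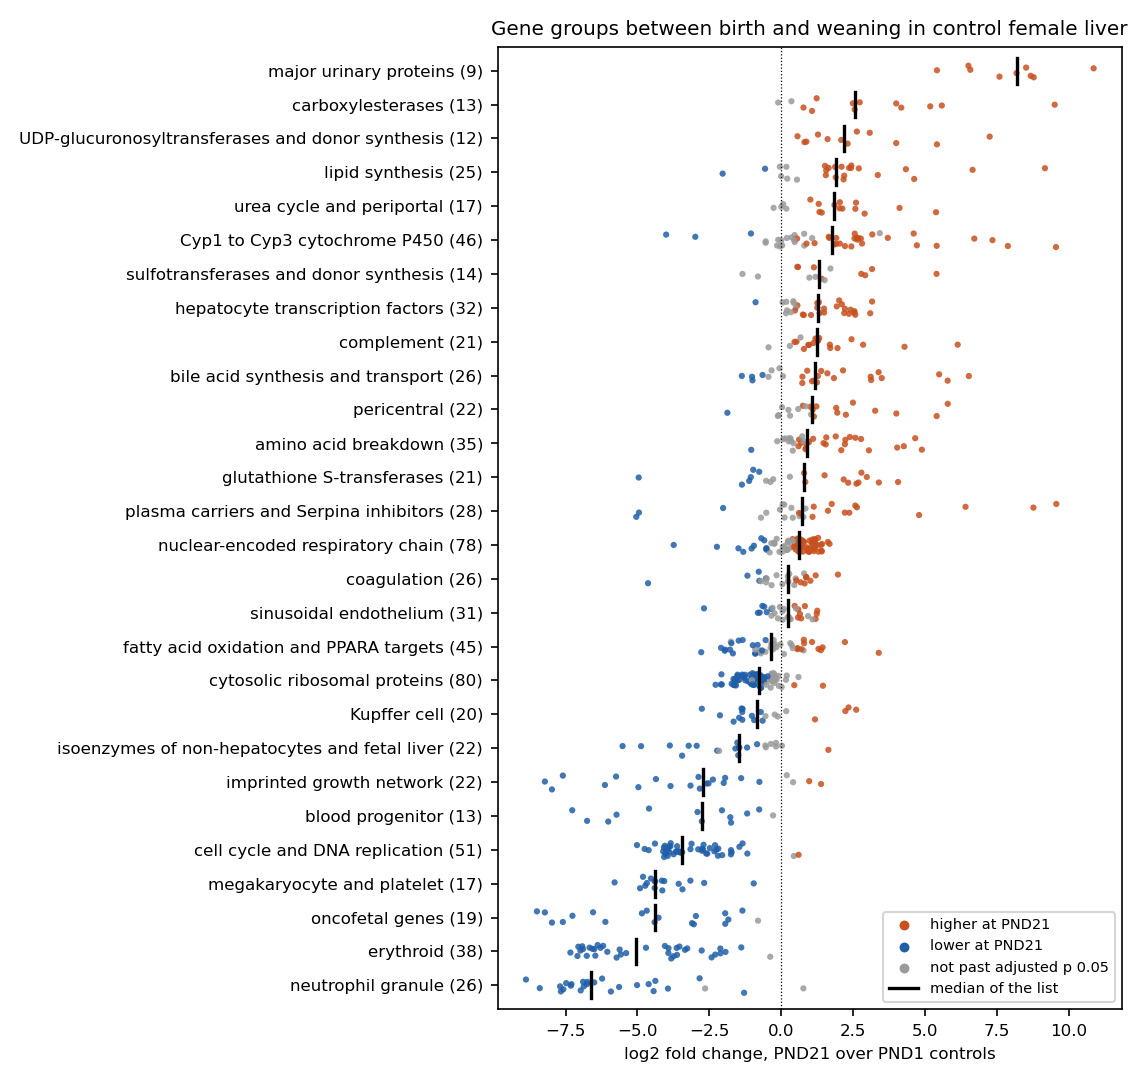
Log2 fold change of PND21 over PND1 (x axis) for the tested members of 28 gene lists (y axis), with a point for each gene and a line at each list's median. Medians run from -6.62 for neutrophil granule genes to 8.17 for major urinary proteins, around a median of 0.01 over all tested genes.

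Alpha-fetoprotein and most other oncofetal transcripts were far lower at PND21. Of 19 tested genes of a list of oncofetal genes, 18 fell and 0 rose, with a median log2 fold change of -4.41. Afp, the main plasma protein of the fetus, had 182683, 184416, 337906 and 307839 at PND1 and 785, 712 and 547 at PND21. Every newborn was above every weanling and the 3 weanlings lay close together (log2 fold change -8.49 ± 0.27, adjusted p = 1.85e-08). Alb, which encodes albumin, the most abundant plasma protein after birth, had 911085, 742072, 1129420.4 and 1372214 at PND1 and 1358432, 3345573 and 2360836 at PND21. The highest newborn and the lowest weanling overlapped, and the called rise was small beside the spread (log2 fold change 1.12 ± 0.42, adjusted p = 0.0462). The call did not hold without PND1 replicate 1, 2 or 3 or without PND21 replicate 2 or 3 (adjusted p 0.106, 0.124, 0.0815, 0.139 and 0.132), nor under total reads (log2 fold change 0.61, adjusted p = 0.21). Per kilobase of exon, Alb stood 4.81 to 7.17 times above Afp in the newborns and 2489 to 6753 times above it in the weanlings. Igf2bp1 and Lin28b, RNA-binding proteins of fetal tissues, were also low at PND21. Igf2bp1 had 212, 289, 233 and 215 at PND1 and 0, 2.66 and 0 at PND21 (log2 fold change -7.26 ± 0.50, adjusted p = 2.19e-06) and Lin28b had 173, 103, 129 and 88.6 at PND1 and 2.92, 3.99 and 2.77 at PND21 (log2 fold change -4.85 ± 0.38, adjusted p = 4.41e-06). Gpc3, a cell-surface proteoglycan, fell by a log2 fold change of -4.68 ± 0.21, and Bex1 by -6.54 ± 0.39.

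The albumin family lies together on chromosome 5 in the order Gc, Alb, Afp and Afm, and its members moved in opposite directions. The genes are at chromosome 5, 89417522 to 89457898 for Gc, chromosome 5, 90460897 to 90476602 for Alb, chromosome 5, 90490737 to 90508907 for Afp and chromosome 5, 90518932 to 90553543 for Afm in mm10. Gc, the vitamin D binding protein, had 44807, 36146, 40591 and 54579.8 at PND1 and 108127, 183941 and 157635 at PND21 (log2 fold change 1.75 ± 0.26, adjusted p = 0.00033), and Afm, the vitamin E binding afamin, had 5647, 6302, 7865 and 7485 at PND1 and 9618, 9737 and 11763 at PND21 (log2 fold change 0.61 ± 0.18, adjusted p = 0.0157). All weanlings were above all newborns for both genes, so that Afp alone of the 4 fell; Gc and Afm were added here for their position, after their values were seen. The rise of Afm had an adjusted p of 0.076 without PND21 replicate 3 and of 0.664 under total reads. The letters CCAAT, which several families of transcription factors bind, are present on either strand in the 250 bases before the start of each of the 4 genes. These promoters are shown because genes with opposite changes share the letters. They are from RefSeq (GRCm38.p6), read 5′ to 3′ on the gene's strand, with the matches on either strand in capitals: chr5:89457899-89458148 (minus strand) for Gc, and chr5:90460620-90460869, chr5:90490464-90490713 and chr5:90518699-90518948 (plus strand) for Alb, Afp and Afm.
Gc: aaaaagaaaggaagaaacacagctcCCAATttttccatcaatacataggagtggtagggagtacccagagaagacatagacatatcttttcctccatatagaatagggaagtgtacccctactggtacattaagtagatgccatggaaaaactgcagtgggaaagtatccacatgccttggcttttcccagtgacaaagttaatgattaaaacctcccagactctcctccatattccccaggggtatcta
Alb: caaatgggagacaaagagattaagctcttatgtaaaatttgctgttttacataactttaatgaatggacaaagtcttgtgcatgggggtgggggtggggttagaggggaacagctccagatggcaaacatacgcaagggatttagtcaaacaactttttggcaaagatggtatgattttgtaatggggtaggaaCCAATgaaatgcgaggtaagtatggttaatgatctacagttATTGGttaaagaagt
Afp: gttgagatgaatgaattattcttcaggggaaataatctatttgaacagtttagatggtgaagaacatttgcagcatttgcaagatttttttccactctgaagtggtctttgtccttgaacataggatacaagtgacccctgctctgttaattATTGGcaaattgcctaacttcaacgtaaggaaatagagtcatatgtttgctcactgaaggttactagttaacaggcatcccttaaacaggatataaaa
Afm: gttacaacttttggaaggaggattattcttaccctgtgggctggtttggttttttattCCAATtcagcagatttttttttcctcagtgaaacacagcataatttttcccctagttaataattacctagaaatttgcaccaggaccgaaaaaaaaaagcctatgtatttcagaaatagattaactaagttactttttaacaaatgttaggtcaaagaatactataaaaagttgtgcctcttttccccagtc
The leftmost base of each match lies 225 bases before the start in Gc, 56 and 15 in Alb, 98 in Afp and 192 in Afm. CCAAT was found in 3922 of the 10754 promoters of tested genes that RefSeq matched by symbol (36.5%), in 14 of 21 (66.7%) promoters of plasma carriers and Serpina inhibitors and in 3 of 14 (21.4%) of complement genes.

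Imprinted genes that act on growth fell as a group, Igf2, Dlk1 and H19 among them. Of 22 tested members, 18 fell and 2 rose (median log2 fold change -2.71). Igf2, the fetal insulin-like growth factor, had 174417, 115797, 121655 and 179407 at PND1 and 535, 530.3 and 403 at PND21 (log2 fold change -8.22 ± 0.22, adjusted p = 1.27e-08). H19, a maternally expressed noncoding RNA beside it, had 369927, 285878, 256067 and 393238 at PND1 and 1405, 1951 and 1673 at PND21 (log2 fold change -7.59 ± 0.23, adjusted p = 1.73e-08). In both genes the newborns were all above the weanlings, and H19 alone held 1.07% to 1.73% of newborn reads. The antisense gene Igf2os had 217 to 305 normalised read counts at PND1 and 0 in all 3 PND21 libraries, at least 185-fold lower (against a floor of 3 reads over the group); no source used here says whether counting used strand, so its reads cannot be told from those of Igf2. Around these genes a run of 7 neighbouring measured genes, chromosome 7, 142575529 to 143019644, fell at least 4-fold each. The Dlk1 and Meg3 locus, chromosome 12, 109032187 to 109749460, held a second run of 6. Dlk1, a membrane protein of hepatoblasts, had 789.6, 1613, 1325 and 1859.9 at PND1 and 1.46, 6.65 and 6.93 at PND21 (log2 fold change -7.97 ± 0.45, adjusted p = 7.11e-07). Meg3, the noncoding RNA of the same locus, had 4023, 18529.7, 6199 and 4811 at PND1 and 1754, 760.3 and 669 at PND21, with the 4 newborns above the 3 weanlings and replicate 2 far above the other newborns (log2 fold change -2.83 ± 0.56, adjusted p = 0.0033). Elsewhere in the genome Mest (log2 fold change -3.85 ± 0.26), Grb10 (-4.36 ± 0.21), Cdkn1c (-3.16 ± 0.26), Plagl1 (-2.60 ± 0.34), Peg3 (-2.38 ± 0.34) and Zim1 (-6.13 ± 0.23) also fell. Dcn, which encodes the matrix proteoglycan decorin, rose (1.38 ± 0.16), as did Zrsr1 (0.97 ± 0.16), a splicing factor gene.

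The more abundant insulin-like growth factor transcript changed from Igf2 to Igf1, the growth hormone dependent form. Igf1 had 3393, 3688, 3735 and 3718 at PND1 and 65148, 58049 and 73906 at PND21 (log2 fold change 4.17 ± 0.17, adjusted p = 5.46e-08), and no newborn approached a weanling. Per kilobase, Igf2 was 54.3 to 89.0 times above Igf1 in the newborns, and Igf1 was 63.3 to 106 times above Igf2 in the weanlings. Ghr, the growth hormone receptor, had 3774, 5055, 4891 and 3528 at PND1 and 33949.7, 19885 and 24674 at PND21 (log2 fold change 2.58 ± 0.22, adjusted p = 9.25e-06), and Igfals, the subunit that keeps IGF1 in the circulation, rose by 3.05 ± 0.26 on the log2 scale. Of the binding proteins, Igfbp1 had 49828, 28468, 38137 and 47456 at PND1 and 206, 774 and 2288 at PND21 (log2 fold change -5.81 ± 0.72, adjusted p = 0.000341). Its 3 weanlings were far apart from each other, and all were below the newborns. Igfbp2 fell (-4.61 ± 0.40) and Igfbp3 rose (0.96 ± 0.21, adjusted p = 0.131 under total reads). The receptor Igf1r fell (-1.63 ± 0.19). Over the whole axis 8 of 20 genes rose and 7 fell, with a median of 0.05, or -0.46 under total reads, where 5 rose and 9 fell.

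**Figure D2:**
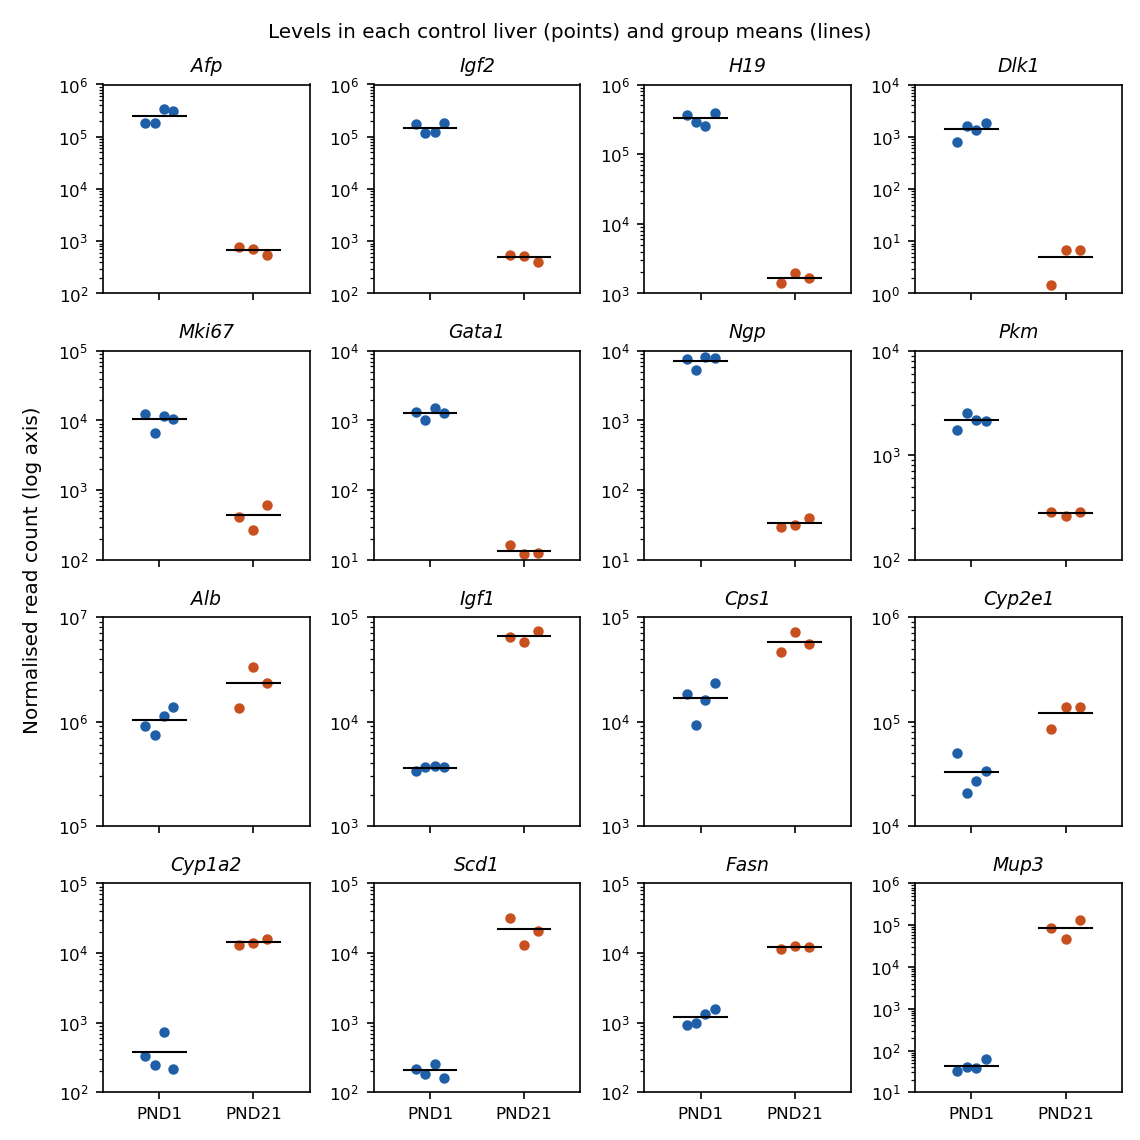
Normalised read counts (y axis, log scale) of 16 genes in each control library at PND1 (4 points) and PND21 (3 points), with a line at each group's mean. Afp, Igf2, H19, Dlk1, Mki67, Gata1, Ngp and Pkm are lower at PND21, and Alb, Igf1, Cps1, Cyp2e1, Cyp1a2, Scd1, Fasn and Mup3 are higher, with overlapping groups for Alb only.

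Most transcription factors of the hepatocyte were higher at PND21 under the deposited scaling. Of 32 tested, 23 rose and 1 fell (median 1.28), or 16 and 2 under total reads (median 0.76). Zhx2 and Zbtb20, known as repressors of Afp after birth, both rose. Zhx2 had 99.2, 162, 109 and 89.5 at PND1 and 683, 379 and 519 at PND21 (log2 fold change 2.19 ± 0.27, adjusted p = 8.32e-05) and Zbtb20 had 4941, 4892, 2797 and 2475 at PND1 and 25216, 11001 and 16617 at PND21 (log2 fold change 2.21 ± 0.33, adjusted p = 0.000396), without overlap in either. Hnf4a, which maintains hepatocyte identity, rose (log2 fold change 1.03 ± 0.23), with an adjusted p of 0.0646 under total reads. The nuclear receptors for bile acids and foreign compounds rose too: Nr1h4 (2.35 ± 0.26), Nr1i3 (2.01 ± 0.29) and Nr1i2 (1.48 ± 0.15). The factor that fell under the deposited scaling was Cux2 (-0.90 ± 0.23), known for higher levels in female liver. Cebpb rose by 3.09 ± 0.16, while Cebpa (0.50 ± 0.25) and Ppara (0.17 ± 0.40) did not pass the test, though Cebpa passed without PND1 replicate 4 (adjusted p = 0.0269). Bcl6, a repressor with higher levels in male liver, had a log2 fold change of 2.54 ± 0.20 in these females.

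Cell division genes fell almost without exception. In the list of cell cycle and DNA replication genes 49 of 51 fell and 1 rose (median -3.46). Mki67, a protein of dividing cells, had 12550.0, 6601, 11605 and 10562 at PND1 and 414, 269.8 and 615 at PND21 (log2 fold change -4.61 ± 0.30, adjusted p = 1.9e-06). Top2a, the topoisomerase that untangles replicated DNA, had 3148, 2093, 3342 and 2733 at PND1 and 312, 77.1 and 242 at PND21 (log2 fold change -3.94 ± 0.43, adjusted p = 0.000109), and in both genes every newborn was above every weanling. Ccnb1 (-4.05 ± 0.33), Ccna2 (-4.07 ± 0.30) and Cdk1 (-2.72 ± 0.28), which drive mitosis, the replicative helicase subunit Mcm2 (-3.49 ± 0.29) and the factors Foxm1 (-2.70 ± 0.30), Mybl2 (-3.89 ± 0.18) and E2f2 (-5.02 ± 0.29) all fell. Cyclin D1 (Ccnd1, 1.05 ± 0.31) rose, with an adjusted p of 0.0546 without PND21 replicate 3 and 0.163 under total reads, and Ccnd3 fell (-1.70 ± 0.20). Dnmt1, which copies DNA methylation at replication, fell (-1.81 ± 0.24), as did Ezh2 (-1.88 ± 0.18), the enzyme of Polycomb repressive complex 2 in dividing cells. The markers of blood cell precursors given below moved with these genes, and their part in the fall was not tested.

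Promoters of mitotic genes are known to carry a pair of elements, the cell cycle homology region (TTTGAA) and the CCAAT box (CCAAT). Both sets of letters were found, on either strand, in 10 of 41 cell cycle promoters (24.4%) and in 457 of the 10754 promoters of tested genes (4.25%). CCAAT was in 30 of the 41 (73.2%), against 3922 (36.5%) of all. TTTGAA was in 10 (24.4%), against 1174 (10.9%) of all, but also in 15 of 40 cytochrome P450 promoters (37.5%), whose genes mostly rose. The promoters of Top2a (chr11:99024190-99024439, minus strand) and Cdk1 (chr10:69352913-69353162, minus strand) are shown as members that fell and hold several matches.
Top2a: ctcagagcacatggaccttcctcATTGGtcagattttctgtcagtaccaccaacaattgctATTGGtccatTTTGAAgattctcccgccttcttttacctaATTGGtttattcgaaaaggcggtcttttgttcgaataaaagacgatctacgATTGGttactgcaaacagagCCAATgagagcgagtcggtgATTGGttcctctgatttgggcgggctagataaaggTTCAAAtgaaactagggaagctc
Cdk1: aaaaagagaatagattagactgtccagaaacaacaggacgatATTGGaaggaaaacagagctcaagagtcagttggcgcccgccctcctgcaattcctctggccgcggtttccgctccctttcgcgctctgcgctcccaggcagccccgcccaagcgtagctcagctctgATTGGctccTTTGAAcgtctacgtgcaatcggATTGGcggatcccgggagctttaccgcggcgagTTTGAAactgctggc
Matches to either motif on either strand are in capitals, 8 in Top2a and 5 in Cdk1.

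Genes of blood cell formation were lower at PND21 in the red cell, neutrophil, platelet, progenitor and B cell precursor lists alike. Of 38 erythroid genes 37 fell and 0 rose (median -5.05). Gata1, the factor that directs red cell formation, had 1305, 1028, 1497 and 1294 at PND1 and 16, 12 and 12.5 at PND21 (log2 fold change -6.47 ± 0.21, adjusted p = 1.85e-08). Slc4a1, the anion exchanger of the red cell membrane, had 19623, 7877, 16088 and 16991 at PND1 and 143, 209 and 166 at PND21 (log2 fold change -6.39 ± 0.29, adjusted p = 2.16e-07), and neither gene's groups came near each other. Haemoglobin fell less: Hbb-bs had 153474, 84739.7, 107556 and 130143 at PND1 and 7579, 15940.5 and 4543 at PND21 (log2 fold change -3.83 ± 0.39, adjusted p = 2.86e-05) and Hba-a1 had 156425, 110963, 150562 and 159907 at PND1 and 43383, 62523 and 19037 at PND21 (log2 fold change -1.94 ± 0.38, adjusted p = 0.00161). All newborns stayed above all weanlings for both globins, whose near-identical copies can divide reads between them. The list as a whole took 1.40% to 1.94% of newborn reads and 0.113% to 0.292% of weanling reads (exact permutation p = 0.0571, adjusted 0.0762). Klf1 (-3.92 ± 0.40), Epor (-3.64 ± 0.21), Nfe2 (-6.50 ± 0.22), Ank1 (-6.76 ± 0.23), Rhd (-7.06 ± 0.26) and Ermap (-7.33 ± 0.21) fell by more than Alas2 (-2.12 ± 0.24), the erythroid enzyme that starts haem synthesis. Alas1, the form of that enzyme in hepatocytes, moved the other way, with 1112, 907, 981 and 947 at PND1 and 41245, 23654 and 36035 at PND21 (log2 fold change 5.06 ± 0.20, adjusted p = 5.62e-08).

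The letters AGATAA, which the GATA factors bind, were found in 9 of 26 erythroid promoters (34.6%) and in 689 of all 10754 (6.41%). They were in 9 of 40 (22.5%) of the cytochrome P450 promoters. The promoter of the beta globin gene Hbb-bs (chr7:103827929-103828178, minus strand) is shown as the member of the list with the clearest product in the blood, with its match in capitals.
Hbb-bs: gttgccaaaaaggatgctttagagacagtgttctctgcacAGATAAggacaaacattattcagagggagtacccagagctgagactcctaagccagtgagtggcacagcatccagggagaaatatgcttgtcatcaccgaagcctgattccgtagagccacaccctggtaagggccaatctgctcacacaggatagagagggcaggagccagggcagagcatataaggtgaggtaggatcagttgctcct

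Genes of white cell precursors and platelets fell as well. Neutrophil granule genes fell in 24 of 26 (median -6.62), and 0 rose. Ngp, a granule protein of immature neutrophils, had 7601, 5299, 8181 and 7782 at PND1 and 29.2, 31.9 and 40.2 at PND21 (log2 fold change -7.69 ± 0.19, adjusted p = 1.15e-08). Mpo (-7.58 ± 0.25), Ltf (-7.66 ± 0.24), Camp (-7.32 ± 0.23), S100a8 (-6.97 ± 0.20) and Elane (-5.92 ± 0.29) were similar, and a run of 7 neighbouring genes of the stefin A cluster (chromosome 16, 36156811 to 36455392) fell with a median of -7.77. Hp, or haptoglobin, is stored in granules and also secreted by hepatocytes, and its log2 fold change was 0.77 ± 0.32 (adjusted p = 0.0675, or 0.0417 without PND1 replicate 4 and 0.0193 without PND21 replicate 1). With Hp, the summed level of the list overlapped between the ages, at 151782, 118032, 121561 and 161979 at PND1 and 94529, 191911 and 139667 at PND21. Without it the sum was 59069, 51949.9, 60976 and 53389 at PND1 and 1104, 589 and 679 at PND21. Megakaryocyte and platelet genes fell in 17 of 17 (median -4.38), with Pf4, a platelet chemokine, at -4.53 ± 0.17. Progenitor genes fell in 12 of 13, among them Myb (-6.02 ± 0.43) and Kit (-0.77 ± 0.21), and B cell precursor genes in 9 of 10, among them Igll1 (-6.37 ± 0.60), part of the surrogate light chain of the pre-B cell receptor. Mature B and plasma cell genes fell in 10 of 12, and the exception that rose was Jchain (2.66 ± 0.60), the joining chain of secreted immunoglobulin, named after its value was seen.

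**Figure D3:**
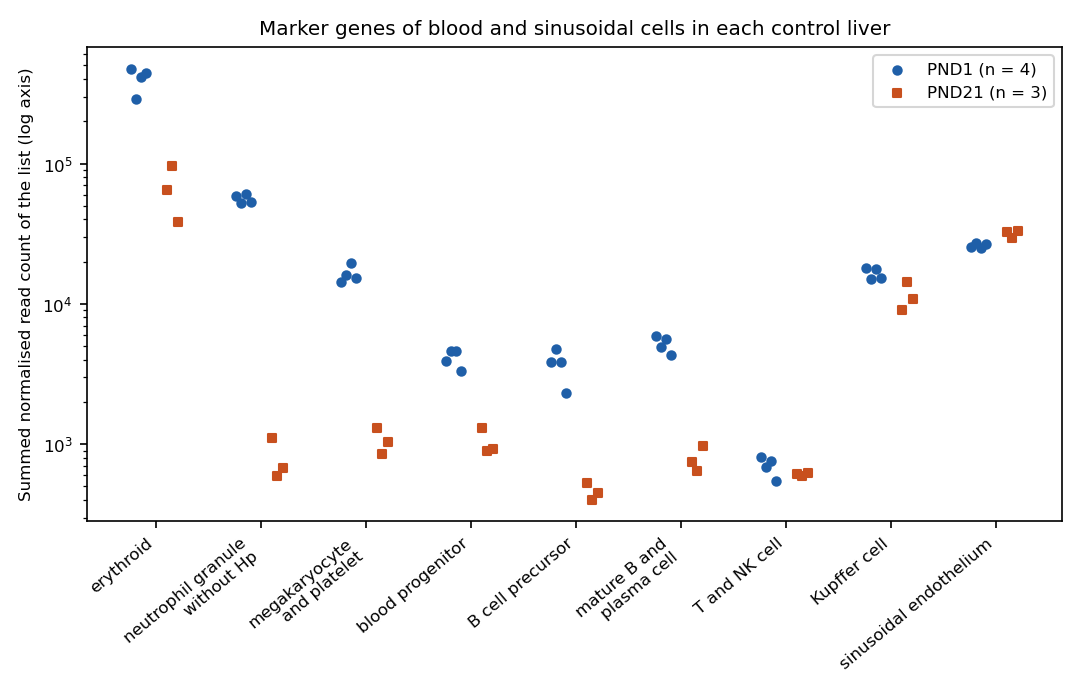
Summed normalised read counts (y axis, log scale) of 9 marker lists in each control library, with a point for each library, 4 at PND1 and 3 at PND21. The erythroid, neutrophil (without Hp), megakaryocyte, progenitor and B cell sums lie lower at PND21 without overlap, and the T and NK cell sums overlap. Under the deposited scaling the Kupffer cell sums lie lower and the sinusoidal endothelium sums higher at PND21, also without overlap. As a share of reads the endothelium list was not higher at PND21 (0.0898% to 0.102%, against 0.102% to 0.131% at PND1).

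The marker lists for T and NK cells, macrophages and endothelium held genes that moved in both directions. Of 15 T and NK cell genes 8 rose and 4 fell (3 and 5 under total reads), with Ccl5 at 2.88 ± 0.51 and Zap70 at 2.64 ± 0.55. Those that fell were Lat (-2.54 ± 0.29), Cd3d (-1.84 ± 0.51), Nkg7 (-1.53 ± 0.37) and Lck (-0.98 ± 0.32). Their summed level was 815, 691, 762 and 544 at PND1 and 608, 598 and 623 at PND21, with overlapping groups. The call for Lck did not hold without PND1 replicate 1 or PND21 replicate 2 (adjusted p 0.0626 and 0.0978). Of 20 genes in the list for Kupffer cells, the resident macrophages, 12 fell and 4 rose (median -0.83). Clec4f, the marker that defines them in mouse liver, had 3164, 2699, 3395 and 2485 at PND1 and 2308, 3512 and 2360.1 at PND21 and did not pass the test (log2 fold change -0.12 ± 0.19, adjusted p = 0.612), while under total reads it fell (-0.64, adjusted p = 0.0133). Marco (-2.76 ± 0.29), Ccr2 (-2.13 ± 0.32) and Adgre1 (-1.36 ± 0.22) fell, and Cd163 (2.33 ± 0.41), Folr2 (1.17 ± 0.30) and Cd207 (2.22 ± 0.57) rose. Cd207 did not pass without PND21 replicate 2 (adjusted p = 0.0508), nor Folr2 under total reads (0.0752). Of the sinusoidal endothelium list 9 of 31 rose and 7 fell, near the shares of 26% higher and 26.9% lower over all tested genes. The median was 0.22, or -0.30 under total reads, where 3 rose and 11 fell. Among the members were the lectin Clec4g at 1.23 ± 0.19, the hyaluronan receptor Lyve1 at -0.82 ± 0.15 and Aplnr at -2.69 ± 0.54. Of 40 MHC class I and interferon-stimulated genes 14 rose and 5 fell (median 0.22, or -0.29 under total reads), with H2-K1 at 2.44 ± 0.30, B2m at 2.36 ± 0.20 and their activator Nlrc5 at 2.53 ± 0.30. The interferon-stimulated Rsad2 (-3.32 ± 0.32), Cmpk2 (-2.28 ± 0.31), Gbp2 (-2.13 ± 0.32), Usp18 (-1.47 ± 0.21) and Ifit2 (-1.42 ± 0.25) fell, and Isg15 (0.05 ± 0.32) and Irf7 (0.19 ± 0.27) did not pass. The list of MHC class II and dendritic cell genes gave 1 call in 13, the fall of Flt3 (-2.06 ± 0.38), a cytokine receptor of dendritic cells and progenitors. The median of that list was 0.02, or -0.48 under total reads, where 0 rose and 2 fell.

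Newborn replicates 2 and 4 stood apart in genes of capsule, duct and matrix. Col1a1 had 386, 2948, 589 and 5034 at PND1 and 686, 919.8 and 1008 at PND21 and Eln had 404, 3416, 456 and 4327 at PND1 and 624, 1085 and 686 at PND21, and neither passed the test (-0.66 ± 0.95 and -0.73 ± 0.99). Msln, a mesothelial marker, had 20.8, 529, 31.5 and 232 at PND1 and 35, 63.8 and 22.2 at PND21, and Krt7, a bile duct keratin, had 30.2, 514, 23.9 and 135 at PND1 and 26.3, 39.9 and 27.7 at PND21 (log2 fold changes -1.36 ± 1.10 and -1.44 ± 0.97, neither past the test). In all 4 genes replicates 2 and 4 were above the other newborns, which lay below the weanlings for Col1a1 and Eln. Replicate 2 also held the muscle gene Mylpf, which had 92.6, 6015, 72.6 and 95.2 at PND1 and 14.6, 31.9 and 27.7 at PND21 (log2 fold change -3.36 ± 1.62, adjusted p = 0.128). Without replicate 2 the fall of Mylpf passed (log2 fold change -1.83, adjusted p = 0.00305). With replicates 2 and 4 left out, 3097 genes were higher and 2883 lower, of which 5805 were called in the same direction with all libraries, and 0 changed direction. In that reduced comparison Col1a1 and Eln were higher at PND21 (log2 fold changes 0.85 and 0.85, adjusted p = 0.0213 and 0.0235), against the sign with all libraries. Of the stellate cell and extracellular matrix list 5 of 37 rose and 9 fell, with Vim at -1.41 ± 0.24. Those that rose were Mgp (2.22 ± 0.63), Ecm1 (2.06 ± 0.19), Rgs5 (1.75 ± 0.31), Dcn and Sparc (0.69 ± 0.23). Mgp did not pass without PND21 replicate 2 or 3 (adjusted p 0.0646 and 0.0535) or under total reads (0.0526), and Sparc did not without PND1 replicate 1 or 3 or PND21 replicate 2 or 3 (0.0625 to 0.107) or under total reads (0.563). Its median was -0.35 with all libraries and 0.26 without those 2, when 10 rose and 8 fell. Of the cholangiocyte list, 6 of 13 fell and 0 rose, among them Epcam, a marker of duct and fetal epithelium (-2.21 ± 0.36). Without the 2 libraries 4 of 12 fell, and the median went from -1.42 to 0.09.

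Enzymes of nitrogen disposal rose together. Of 17 urea cycle and periportal genes 13 rose and 0 fell (median 1.84). Cps1, which makes carbamoyl phosphate for the cycle, had 18289, 9221, 15973 and 23206 at PND1 and 46353, 72021 and 54878 at PND21 (log2 fold change 1.84 ± 0.31, adjusted p = 0.000679). Arg1, which releases urea, had 10026, 4923, 7294 and 14142 at PND1 and 31928, 69756 and 59686 at PND21 (log2 fold change 2.59 ± 0.38, adjusted p = 0.000317), and all weanlings were above all newborns in both genes. Ass1 (2.89 ± 0.47), Asl (2.57 ± 0.28) and Otc (2.12 ± 0.21) rose too, and Sds (4.11 ± 0.64), which breaks down serine, and Pigr (5.37 ± 0.27), the carrier of IgA into bile, had higher log2 fold changes. Enzymes that break down amino acids rose in 23 of 35 and fell in 1 (median 0.88), and 15 rose and 2 fell under total reads. Tdo2, the first enzyme of tryptophan breakdown, had 1454, 243, 399.5 and 853 at PND1 and 13552, 18911 and 20605 at PND21 (log2 fold change 4.88 ± 0.56, adjusted p = 0.00019), with no overlap. Tat (2.77 ± 0.42), Gpt (4.26 ± 0.23) and Prodh (4.65 ± 0.23) rose, and Agxt, which detoxifies glyoxylate, fell (-1.05 ± 0.27).

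Genes of the central vein region rose in 13 of 22 and fell in 1 (median 1.06). Cyp1a2, which oxidises caffeine and many amines, had 335, 244, 741 and 218 at PND1 and 13124, 13967 and 16056 at PND21 (log2 fold change 5.40 ± 0.37, adjusted p = 5.52e-06). Slc1a2, the glutamate transporter of the innermost hepatocytes, had 35.9, 49.1, 58.3 and 47.6 at PND1 and 1821, 3615 and 2802 at PND21 (log2 fold change 5.78 ± 0.26, adjusted p = 1.13e-07). Newborns were below weanlings by more than 10-fold in every library of both genes. Glul, the glutamine synthetase that marks the same cells, rose less (1.22 ± 0.21), as did Cyp2e1 (1.91 ± 0.33), and Notum, an inhibitor of Wnt signals made there, rose by 4.0 ± 0.20. The member that fell was Slc13a3 (-1.88 ± 0.27), a dicarboxylate transporter. Axin2, a target of Wnt signals throughout the body, had a log2 fold change of -0.10 ± 0.25 and did not pass.

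Most drug-metabolising enzymes were higher at PND21, and a few belonged to the newborn. Of 46 cytochrome P450 genes of families 1 to 3, which oxidise foreign compounds and steroids, 27 rose and 3 fell (median 1.76). Cyp2c38 had 0.945, 2.54, 0 and 1.64 at PND1 and 1514, 2214 and 1091 at PND21 (log2 fold change 9.54 ± 0.48, adjusted p = 2.56e-07), and its neighbours Cyp2c29 (7.87 ± 0.65) and Cyp2c39 (7.34 ± 0.26) rose with it. Newborn Cyp2c38 was at the level of a few reads. Cyp3a11, the main mouse counterpart of human CYP3A4, had 11309.9, 9038, 15170.3 and 12877 at PND1 and 40088, 110151 and 75039.8 at PND21 (log2 fold change 2.54 ± 0.33, adjusted p = 0.000129), while Cyp3a16, known as a fetal and neonatal form, had 2795, 2172, 4784 and 4838 at PND1 and 23.3, 895 and 453 at PND21 (log2 fold change -4.0 ± 1.27, adjusted p = 0.0407). Weanling replicate 1 was far below the other weanlings for Cyp3a16, and all 3 were below the newborns. The call for Cyp3a16 did not hold when any 1 of the 4 newborns was left out (adjusted p 0.0752, 0.0756, 0.0906 and 0.104). Cyp3a57 (-2.99 ± 0.53) and Cyp3a44 (-1.06 ± 0.38) were the other P450 genes that fell, and are named after their values were seen; Cyp3a44 did not pass without PND1 replicate 2 or 3 or PND21 replicate 1 or 2 (adjusted p 0.0904, 0.0905, 0.109 and 0.142). Closely related P450 copies can divide reads between them, and no source used here says how reads that fit several genes were counted. Per kilobase, Cyp2e1 ranked first of the 46 at both ages, at 15253 and 55628 normalised read counts, Cyp3a25 went from rank 3 to 2, Cyp3a11 from 7 to 3 and Cyp2d26 from 2 to 6.

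All 12 tested genes of a list of UDP-glucuronosyltransferases, with 2 enzymes that make their sugar donor among them, rose (median 2.19), led by Ugt2b37 (7.24 ± 0.55) and Ugt2a3 (5.41 ± 0.21). Under total reads 8 of the 12 rose and 0 fell (median 1.68). Sulfotransferases, listed with 2 enzymes that make the sulfate donor, rose in 8 of 14 and fell in 0. Sult2a1, which sulfates bile acids and steroids, had 2137, 1663, 821 and 1909 at PND1 and 337, 14291 and 137 at PND21, so that weanling replicate 2 was above every newborn and the other weanlings were below them (log2 fold change -0.82 ± 1.66, adjusted p = 0.709). Without that replicate the log2 fold change was -2.83 (adjusted p = 0.00181). Carboxylesterases rose in 11 of 13 (median 2.55) and fell in 0. Ces3b, an esterase of hepatocyte microsomes, had 14.2, 16.9, 13.4 and 9.85 at PND1 and 13720.2, 6125 and 13356 at PND21 (log2 fold change 9.50 ± 0.30, adjusted p = 1.85e-08). All newborns were near the filter on low values, and all weanlings were far above them. Glutathione S-transferases rose in 11 of 21 and fell in 6 (9 and 9 under total reads), with Gstm3 at 4.06 ± 0.28, Gstp1 at 1.5 ± 0.27 and Mgst2 at -4.96 ± 0.36.

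**Figure D4:**
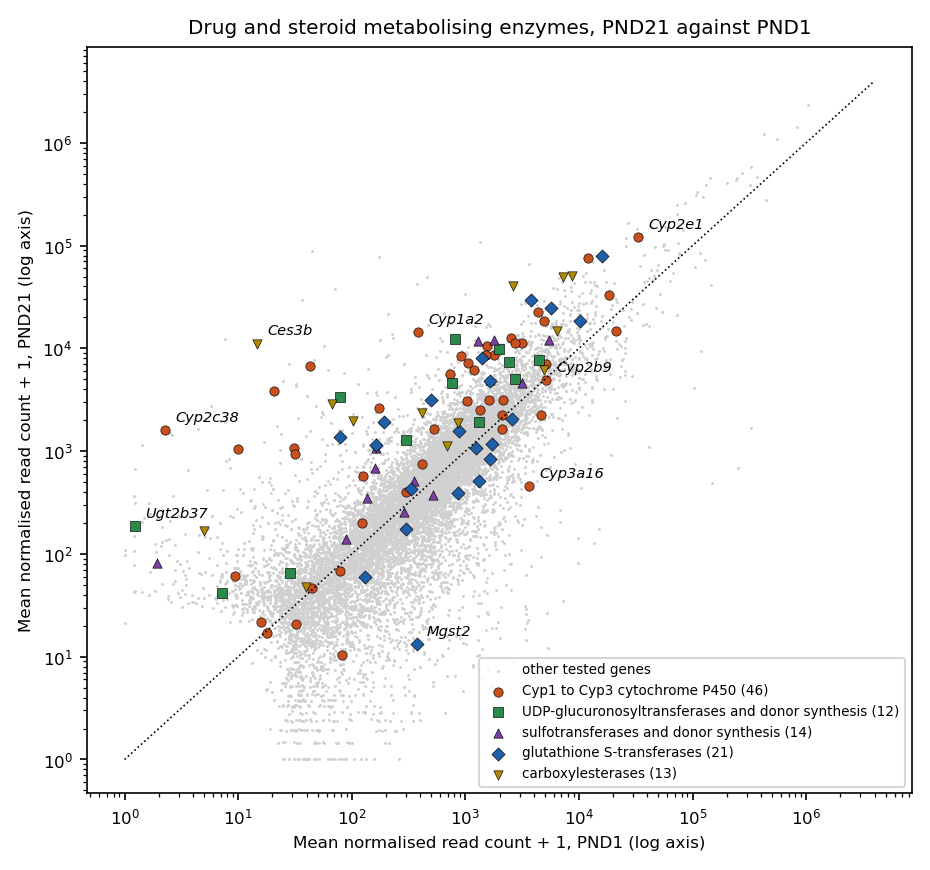
Mean normalised read count + 1 at PND1 (x axis, log scale) and PND21 (y axis, log scale, n = 4 and n = 3) of the drug-metabolising enzyme genes, coloured by family, with the line of equal levels. Cyp2c38 and Ces3b lie far above the line and Cyp3a16 and Mgst2 below it.

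Major urinary proteins, pheromone carriers made by the liver, had the highest median of the 60 gene lists. All 9 tested Mup genes rose (median 8.17), and their summed level was 37.8, 47.4, 49.7 and 71.4 at PND1 and 87035, 49787 and 141806 at PND21. Mup3 had 33.1, 40.6, 38.2 and 64 at PND1 and 83614, 46914 and 133538 at PND21 (log2 fold change 10.85 ± 0.34, adjusted p = 3.76e-08), the highest log2 fold change of the genes named here. Mup genes are near-identical copies, so the division of reads among them is uncertain and the sum is the firmer value. The sums of all weanlings were above all newborns. The Mup genes formed the longest of 19 runs of at least 4 neighbouring measured genes that changed at least 4-fold in the same direction, 11 genes at chromosome 4, 60135932 to 62150863, with a median of 8.16. These runs held 93 genes, 12 runs higher and 7 lower at PND21, and many were families of related genes. Among them were the organic anion transporters Slc22a26 to Slc22a30 (chromosome 19, 7781041 to 8405111, median 5.62) and, lower at PND21, the Slfn genes (chromosome 11, 83175186 to 83286726, median -3.24).

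Bile acid genes rose in 18 of 26 and fell in 4 (median 1.19). Cyp7a1, the rate-limiting enzyme of bile acid synthesis, had 489, 392, 732 and 681 at PND1 and 6337, 5023 and 7683 at PND21 (log2 fold change 3.49 ± 0.24, adjusted p = 1.98e-06). Cyp27a1 (3.38 ± 0.25) and Cyp7b1 (3.11 ± 0.34) of the alternative pathway rose by similar amounts, and Cyp8b1, which sets the share of cholic acid, did not pass (-0.07 ± 0.24) but fell under total reads (-0.58, adjusted p = 0.0477). Slco1a1, an uptake transporter of the sinusoidal membrane, had 266, 162, 214 and 269 at PND1 and 11357, 10167 and 16224 at PND21 (log2 fold change 5.78 ± 0.22, adjusted p = 4.15e-08), without overlap between ages for either gene with values given here. The bile salt export pump Abcb11 had a log2 fold change of 0.06 ± 0.27 and did not pass. Nr0b2, a repressor of Cyp7a1, fell (-1.02 ± 0.21), as did Abcc4 (-1.37 ± 0.26), Slc51b (-1.0 ± 0.36) and Klb (-0.65 ± 0.22), the co-receptor for intestinal FGF15. The call did not hold for Klb without PND1 replicate 1 or 4 or PND21 replicate 3 (adjusted p 0.0657 to 0.132), nor for Slc51b without PND1 replicate 1, 2 or 4 or PND21 replicate 1 or 3 (0.0621 to 0.138).

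Genes that make fat from carbohydrate rose. Of 25 lipid synthesis genes 18 rose and 2 fell (median 1.89). Scd1, which desaturates new fatty acids, had 218, 186, 260.0 and 163 at PND1 and 31394, 13093 and 20986 at PND21 (log2 fold change 6.65 ± 0.28, adjusted p = 1.01e-07). Fasn, fatty acid synthase, had 939, 999, 1332 and 1566 at PND1 and 11447, 12563 and 12269.8 at PND21 (log2 fold change 3.35 ± 0.20, adjusted p = 7.11e-07), and Thrsp, a lipogenic gene that responds to thyroid hormone and carbohydrate, had 34, 110.0, 91.8 and 46.8 at PND1 and 46512, 26604 and 40412 at PND21 (log2 fold change 9.16 ± 0.40, adjusted p = 4.53e-07). All weanlings were above all newborns by wide margins. Acaca (2.09 ± 0.20), Acacb (2.69 ± 0.35), Elovl6 (2.42 ± 0.43) and the regulators Srebf1 (2.43 ± 0.19) and Mlxipl (2.18 ± 0.25) also rose. The members that fell were G6pdx (-2.04 ± 0.22) and Pgd (-0.57 ± 0.14), which make NADPH in the pentose phosphate pathway. Cholesterol synthesis changed less, with 10 of 25 higher and 2 lower and a median of 0.41, or -0.11 under total reads, where 5 rose and 7 fell. Insig1 rose (2.11 ± 0.39), Idi1 fell (-1.68 ± 0.41) and Sqle did not pass (0.34 ± 0.34).

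Fatty acid oxidation is a main energy source of the suckling liver. A list of its genes and of targets of the factor encoded by Ppara moved in both directions. Of its members 16 of 45 were lower and 11 higher, with a median of -0.35. Over all tested genes 26.9% were lower and 26% higher, and under total reads 26 of the list were lower and 5 higher. The summed level of the list was 264555, 225572, 263671 and 354722 at PND1 and 317979.8, 321345 and 465293 at PND21, with overlapping groups. Cyp4a14, which oxidises the end carbon of fatty acids, had 37631, 13806, 18419 and 31757 at PND1 and 4879.8, 7258 and 6077 at PND21 (log2 fold change -1.97 ± 0.34, adjusted p = 0.00077). Hadhb, a subunit of the mitochondrial trifunctional protein, had 3957, 3745, 4726 and 6301 at PND1 and 1222, 1457 and 1625 at PND21 (log2 fold change -1.68 ± 0.20, adjusted p = 7.74e-05), and in both genes all newborns were above all weanlings. Cpt1a, the gate of fatty acid entry into mitochondria (-0.90 ± 0.21), Pdk4 (-2.10 ± 0.35), Ucp2 (-2.79 ± 0.18) and the droplet protein Plin2 (-1.78 ± 0.26) fell. Pex11a (3.38 ± 0.25) and Acaa1b (1.43 ± 0.18), of peroxisomes, rose. Fgf21, a hormone of fasting and of fat intake, had 4.72, 811, 1420.3 and 287 at PND1 and 62.7, 66.5 and 54 at PND21, with newborn replicate 1 below all weanlings and the other newborns above them (log2 fold change -1.76 ± 1.94, adjusted p = 0.485). Without that newborn the log2 fold change of Fgf21 was -3.49 (adjusted p = 0.000711).

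Isoenzymes of glucose metabolism differed between the ages. Hk1, the hexokinase of other tissues, had 1191, 842, 1472 and 1555 at PND1 and 101, 125 and 111 at PND21 (log2 fold change -3.45 ± 0.22, adjusted p = 1.23e-06), and the groups did not overlap. Pkm, the pyruvate kinase of dividing and extrahepatic cells, had 1756, 2530.4, 2200.2 and 2146 at PND1 and 284, 265 and 284 at PND21 (log2 fold change -2.94 ± 0.15, adjusted p = 3.15e-07), and Pklr, the form of liver and red cells, rose (2.37 ± 0.27). Per kilobase, Pkm was 0.548 to 0.993 times Pklr in newborns, and Pklr was 45.7 to 59.7 times Pkm in weanlings. Over 22 isoenzymes of fetal liver and other tissues 14 fell and 1 rose (median -1.48), and over 11 of adult liver 9 rose and 2 fell (median 0.88), or 3 and 2 under total reads (median 0.37). Phgdh (-5.52 ± 0.50) and Psat1 (-4.88 ± 0.41), which make serine from glycolysis, were among those that fell, and Asns, which makes asparagine, fell as well (-5.23 ± 0.36). The exception in the first list was Shmt2 (1.63 ± 0.17), the mitochondrial serine hydroxymethyltransferase, and those in the second were Ldha (-2.24 ± 0.28) and Pfkl (-0.63 ± 0.19). Pfkl did not pass without PND1 replicate 3 or PND21 replicate 1 or 3 (adjusted p 0.0532 to 0.073). Hk1 and Pkm are also expressed by blood cells, whose markers moved with them, and the part of those cells was not tested. Khk, which starts fructose use, rose (3.34 ± 0.19), and G6pc, the last step of glucose release, did not pass (0.16 ± 0.55).

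Genes of secreted plasma proteins rose more often than they fell under the deposited scaling. Complement genes rose in 18 of 21 and fell in 0 (median 1.25). C9, the pore-forming component, had 222, 226, 145 and 118 at PND1 and 14003, 10173 and 12288 at PND21 (log2 fold change 6.13 ± 0.24, adjusted p = 5.09e-08), without overlap, and C3, the central component, did not pass (-0.45 ± 0.27) but fell under total reads (-0.96, adjusted p = 0.00795). Coagulation genes rose in 8 and fell in 5 of 26 (median 0.24, or -0.28 under total reads, where 3 rose and 10 fell), with F9 at 1.97 ± 0.22 and F13a1, a factor also made by macrophages and platelets, at -4.63 ± 0.34. Over all tested genes 26% rose and 26.9% fell under the deposited scaling. The other coagulation genes that fell were Serpinf2 (-1.18 ± 0.20), F13b (-0.79 ± 0.16), Kng1 (-0.77 ± 0.25) and F11 (-0.53 ± 0.17). Kng1 did not pass without PND1 replicate 1 or 4 or PND21 replicate 1 or 3 (adjusted p 0.0618 to 0.0718), nor F11 without PND1 replicate 3 or 4 or PND21 replicate 1 or 2 (0.0505 to 0.0689). A list of apolipoproteins and the enzymes, receptors and transporters of lipoproteins rose in 12 of 23 and fell in 3 (6 and 4 under total reads). Apoc3, an inhibitor of triglyceride clearance, had 760.4, 1445, 1309 and 1909 at PND1 and 83723, 126361 and 115855 at PND21 (log2 fold change 6.38 ± 0.29, adjusted p = 1.56e-07) and went from rank 16 to rank 5 of its list per kilobase, while Apoa2, Apoa1 and Apoe held ranks 1 to 3 at both ages. Apom, a carrier of sphingosine 1-phosphate in plasma, was the apolipoprotein that fell (-3.62 ± 0.31), beside the lipase Lpl (-1.20 ± 0.25) and the receptor Apobr (-1.58 ± 0.31). A1bg, a plasma protein of the immunoglobulin superfamily, had 0, 0, 0 and 1.64 at PND1 and 407, 1832 and 1179 at PND21 (log2 fold change 9.56 ± 0.60, adjusted p = 1.13e-06), and was thus at the level of single reads in newborns. Serpina7, the thyroxine binding globulin, fell (-5.04 ± 0.18), and Ttr, the other thyroxine carrier, rose (1.62 ± 0.28).

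Acute phase genes rose in 10 of 20 and fell in 3 (median 0.65). Orm1, an acid glycoprotein, had 85, 46.5, 52.6 and 40.2 at PND1 and 9646, 10980.1 and 10719 at PND21 (log2 fold change 7.57 ± 0.23, adjusted p = 1.73e-08), and Orm2 (7.22 ± 0.63), Orm3 (7.24 ± 0.58) and Saa1 (6.76 ± 0.39) rose too, as members of families whose copies can divide reads. Those that fell were Il1rn (-4.36 ± 0.41), Itih2 (-0.99 ± 0.25) and Itih3 (-0.61 ± 0.20). Itih3 did not pass without PND1 replicate 1, 3 or 4 or PND21 replicate 3 (adjusted p 0.0552 to 0.0922). Hamp, or hepcidin, the hormone that limits iron uptake, had 2675, 2917, 2684 and 3996 at PND1 and 22063, 34539 and 24155 at PND21 (log2 fold change 3.13 ± 0.22, adjusted p = 2.2e-06), and its copy Hamp2 had 4.72, 11.8, 2.87 and 7.39 at PND1 and 17188, 13846 and 5799 at PND21 (log2 fold change 10.64 ± 0.46, adjusted p = 2.16e-07). The weanlings were above the newborns in all 3 genes with values given here. Iron genes overall were 7 higher and 4 lower of 19 (median 0.27, or -0.25 under total reads with 4 higher and 9 lower), with the transferrin receptor Tfrc, which red cell precursors also express, lower (-2.45 ± 0.24), along with Erfe (-3.30 ± 0.47), Steap3 (-2.53 ± 0.27) and Hmox1 (-1.66 ± 0.18). The metallothioneins Mt1 (-1.33 ± 0.39, adjusted p = 0.0168) and Mt2 (-1.5 ± 0.54, adjusted p = 0.0427), which bind zinc and copper, fell with overlapping groups. Mt1 had 27529, 37041, 37541 and 45308 at PND1 and 7848, 29546 and 12885 at PND21, where the lowest newborn lay below the highest weanling. The call for Mt1 did not hold without PND21 replicate 1 or 3 (adjusted p 0.0525 and 0.0608), nor that for Mt2 without PND21 replicate 1 or 3 or any 1 newborn (0.0524 to 0.105).

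Retinoid, stress and clock genes also rose more often than they fell under the deposited scaling. Retinoid genes rose in 12 of 18 and fell in 2, with Adh1 (2.26 ± 0.22) and Aldh1a1 (5.35 ± 0.17), which oxidise retinol and its aldehyde, among the first and Dhrs9 (-3.02 ± 0.58) among those that fell. Heat shock genes rose in 10 of 16 and fell in 0, led by Hspa1b, which had 3.78, 27.9, 7.65 and 12.3 at PND1 and 454, 344 and 497 at PND21 (log2 fold change 5.25 ± 0.53, adjusted p = 2.68e-05), with all weanlings above all newborns. In a list of genes of folding and stress in the endoplasmic reticulum 15 of 25 rose and 3 fell. Hspa5 rose by 1.12 ± 0.24 and Sdf2l1 by 2.41 ± 0.18. Those that fell were Asns, which makes asparagine, Trib3 (-2.59 ± 0.32) and Canx (-0.52 ± 0.18). Canx did not pass without PND1 replicate 1, 3 or 4 or PND21 replicate 2 or 3 (adjusted p 0.0622 to 0.119). Oxidative defence genes rose in 12 of 23 and fell in 4 (median 0.52, or 0.01 under total reads, where 5 rose and 8 fell), and catalase (Cat) rose by 2.19 ± 0.20. The selenoprotein genes Gpx3 (-1.04 ± 0.35), Selenop (-0.86 ± 0.27), Gpx4 (-0.76 ± 0.16) and Gpx1 (-0.65 ± 0.24) were those that fell. Of these calls Gpx1 was lost without PND1 replicate 1, 3 or 4 or PND21 replicate 1 or 3 (adjusted p 0.0603 to 0.129), Gpx3 without PND1 replicate 2 or 4 or PND21 replicate 1 or 3 (0.0598 to 0.11), and Selenop without replicate 1 of either age (0.0581 and 0.0604). Clock genes rose in 12 of 20 and fell in 3. The output gene Dbp had 417, 299, 149 and 135 at PND1 and 1443, 1632 and 1945 at PND21 (log2 fold change 2.88 ± 0.37, adjusted p = 0.0002), Per1 rose (2.16 ± 0.39) and Arntl, which peaks at another hour of the day, fell (-1.33 ± 0.21), with Npas2 (-3.49 ± 0.65) and Bhlhe41 (-3.79 ± 0.70). The hour of dissection is not given in the labels, so hour and age cannot be told apart for these genes.

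Of the machinery of every cell, ribosomal protein genes fell and respiratory chain genes mostly rose. Of 80 genes for cytosolic ribosomal proteins, 55 fell and 2 rose (median -0.79), with Rps4x at -2.29 ± 0.20 and Rplp0 at -2.10 ± 0.20; many have processed copies in the genome that can take reads. Those that rose were Rps27l (1.44 ± 0.16) and Rpl36al (0.45 ± 0.14). Rpl36al did not pass without PND1 replicate 3 or PND21 replicate 2 or 3 (adjusted p 0.05 to 0.082), and it had the opposite sign under total reads (-0.065, adjusted p = 0.696). Nuclear-encoded respiratory chain genes rose in 48 of 78 and fell in 11 (median 0.62). Under total reads, 25 rose and 19 fell (median 0.10), so the excess of rises depended on the scaling. Ndufs8 of complex I rose (1.67 ± 0.17) and Atpif1, the inhibitor of ATP synthase, fell (-2.24 ± 0.16). Mitochondrially encoded genes took 3.99% to 15.8% of newborn reads, lowest in replicate 4, and 10.1% to 15.5% of weanling reads (exact permutation p = 0.743), and mt-Nd4 was the member called of 7 (1.15 ± 0.42). That call did not hold without PND1 replicate 2 or 4 or without any 1 of the weanlings (adjusted p 0.0508 to 0.107), nor under total reads (0.197). Proteasome genes were 9 higher and 4 lower of 34 (median 0.15), and citric acid cycle genes 7 and 3 of 22 (median 0.24). Over all tested genes 26% were higher and 26.9% lower. Under total reads the proteasome and citric acid cycle medians were -0.36 and -0.27, with 1 and 2 higher and 17 and 9 lower. The proteasome genes that fell were Psmd13 (-1.76 ± 0.19), Psmd10 (-1.41 ± 0.18), Psma5 (-0.78 ± 0.22) and Psmd5 (-0.64 ± 0.18). The members of the citric acid cycle list that fell were Idh2 (-1.47 ± 0.17), Mpc1 (-1.11 ± 0.26) and Dld (-0.47 ± 0.15). Psmd5 did not pass without PND21 replicate 3 (adjusted p = 0.0542), nor Dld without PND1 replicate 3 or 4 or PND21 replicate 1 or 3 (0.0647 to 0.0825). Of 34 splicing genes, 12 fell while 4 rose (25 and 1 under total reads), with Hnrnpa1 at -1.82 ± 0.22; Snrpa (0.88 ± 0.14), Mbnl1 (0.71 ± 0.14), Snrpd3 (0.64 ± 0.19) and Snrpd2 (0.52 ± 0.14) rose. Under total reads Mbnl1, Snrpd3 and Snrpd2 did not pass (adjusted p 0.232, 0.554 and 0.989), nor did Snrpd3 without PND21 replicate 2 or 3 (0.0612 and 0.0767) or Snrpd2 without PND21 replicate 3 (0.054).

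**Figure D5:**
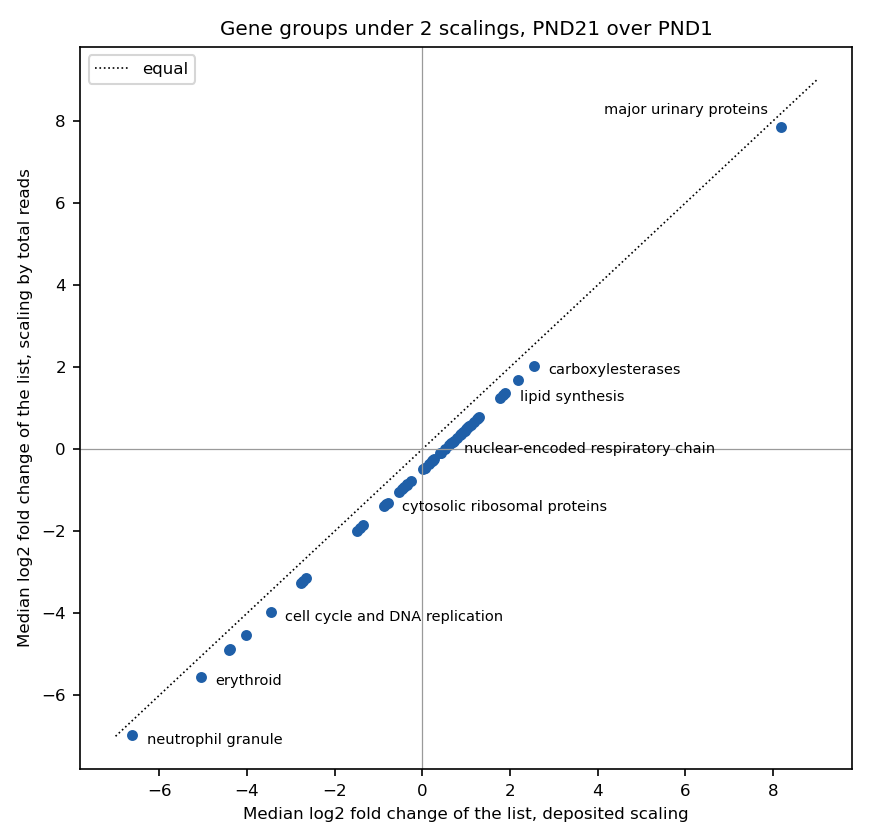
Median log2 fold change of PND21 over PND1 for each gene list under the deposited size factors (x axis) and under total reads (y axis). The exocrine pancreas list and the muscle and adipose list, with 1 tested gene each, are not drawn. All medians shift down, and lists near 0, such as proteasome and citric acid cycle, fall on the other side of 0.

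The exposed females of the same ages, 4 at PND1 and 3 at PND21, allow a test of whether the change with age differed in controls. The 2 age differences share no library. The difference of the age differences passed for 2 of the 14259 genes (0.014%), and 1294 had an unadjusted p below 0.05; limma voom passed 0, and 1116 had an unadjusted p below 0.05. Pctp, a carrier of phosphatidylcholine, had 1604, 2662, 2465 and 2302 in control newborns and 48.1, 61.1 and 36.0 in control weanlings, against 1507, 2354, 2278 and 1665 in exposed newborns and 300, 210 and 264 in exposed weanlings. Newborns overlapped between exposures and weanlings did not, and the log2 fold change was -5.52 in controls and -2.90 in exposed females (difference -2.62 ± 0.32, adjusted p = 0.0092). Adcy1, an adenylate cyclase, had 139, 129, 201 and 164 and then 5.84, 10.6 and 6.93 in controls, against 136, 141, 130 and 120 and then 42.2, 51.4 and 79.0 in exposed females. Its log2 fold change was -4.19 in controls and -1.23 in exposed females (difference -2.96 ± 0.39, adjusted p = 0.0106), again with weanlings that did not overlap. The count of 2 was 12 without control PND21 replicate 2, 7 and 6 without exposed PND21 replicate 2 and 3, and 4 without control PND1 replicate 1.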

How the data were processed

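The measurements were total RNA from liver, read as 125 bp single-end reads, of 4 control females at PND1 and 3 at PND21. The tools FastQC, STAR and featureCounts and the build mm10 are named in the submitters' processing notes, with no versions; the strand setting and the treatment of reads that fit several genes were not found in the sources used here. The values the authors deposited are log2(reads divided by a size factor + 1). For 100% of values, 2 raised to the value, less 1, came within 0.1 of a whole number of reads when divided by the value of 1 read. The deposited baseMean, a signal on the normalised count scale, equals the mean over all 14 PND1 and PND21 libraries (largest relative gap 2.81e-09), so both tables share 1 scaling. Whole reads over the deposited genes gave library totals of 22.03 to 27.8 M reads, which fixes the precision of low genes at a few reads.

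Levels are the log2 values turned back to normalised read counts, and differences were tested with limma 3.58.1 in R 4.3.3 (intensity trend, robust, pseudocount 1), two-sided, with Benjamini-Hochberg adjustment over 14233 genes with at least 10 normalised read counts in 3 of the 7 libraries. Count models were planned for raw counts, and limma was planned for log2 values, which the tables hold; limma voom on the recovered reads was an alternative. The fit was tested on simulated data. Shares of reads were compared by exact permutation over the 35 arrangements of 4 and 3 libraries. Positions are from GENCODE vM21 (14238 of 14259 identifiers matched) and promoters from RefSeq, matched by symbol for 10754 tested genes. The 60 gene lists, the members and the comparison were chosen with earlier results of these data known. Genes were named by rule: the 15 highest and 15 lowest log2 fold changes without overlap and with a mean of at least 100 in the higher group, key genes of the lists, up to 6 of lowest p in each list, the 10 most abundant at each age, the 8 of lowest interaction p, and members of the 8 longest runs of neighbours; any other gene, including members behind counts of 5 or fewer, was named after its values were seen; some genes are not reported here. Alternatives covered scaling (trimmed mean of M values, total reads, total reads without erythroid genes), pseudocounts of 0.5 and 4, no filter or a filter at 50, the variance model, voom, all 14 libraries in 1 fit, a replicate block, and each library left out; leaving out PND1 replicates 2 and 4 together, and leaving out each library in the test against exposed females, were added after seeing the data.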

Additional observations from a re-analysis of the deposited data

Results flagged for a closer look

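The change with age differed between control and exposed females by a log2 difference of -2.62 for Pctp and -2.96 for Adcy1, by the test of the difference itself. With limma voom on the recovered reads 0 genes passed that test, so neither call held there.

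The following are single newborn libraries that lay far from the other 3 in the named genes. Such a library was found for 16 of the 280 genes and for 0 of 4 shares of reads, and chance flags about 1 in 20. PND1 replicate 1 was high for G6pc (18669.7 normalised read counts, against 4476 to 5512 in the other newborns), Gpt (629 against 371 to 409), Prodh (433 against 225 to 249.5) and Slc22a26 (122 against 25.4 to 34.5). It was low for Igf1 (3393 against 3688 to 3735), Igfbp3 (941 against 1404 to 1493) and Mest (1949.5 against 3113 to 3275). Replicate 2 was high for Meg3 (18529.7 against 4023 to 6199), Mylpf (6015 against 72.6 to 95.2) and Pdk4 (1029 against 409.9 to 465). Replicate 3 was high for Nkg7 (79.3 against 41.0 to 47.2), Pgd (1420.3 against 1156 to 1187) and Ly6g (151 against 56.7 to 59.2). Replicate 4 was high for Ldha (34921 against 21099 to 23020.2). Ugt2b37 in replicate 1 (0.945) and A1bg in replicate 4 (1.64) were normalised values of 1 and 2 reads, against 0 in the other newborns.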

How the results depend on the processing

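Under total reads, and under total reads outside the erythroid list, 1721 and 1667 genes were higher and 6586 and 6750 lower, and with at least a 2-fold change 1036 and 1012 were higher and 4182 and 4290 lower; the median gene moves by the same construction. Leaving out each replicate gave 2865 to 3608 higher and 3285 to 3712 lower. Calls in the opposite direction numbered 0 under all 19 alternatives. With replicate number as a replicate block, 3136 genes were higher and 3344 lower. The labels do not say that the numbers pair animals, and deviations of same-numbered libraries correlated at 0.017, -0.054 and 0.149, so the block was not used. The sample codes of PND1 replicate 2 and PND21 replicate 1 begin with the same number, whose meaning the labels do not give. The deviations of that pair correlated at 0.264, the highest of the 12 pairs. A correlation larger in size, -0.345, was that of PND1 replicate 4 with PND21 replicate 1, whose codes begin with different numbers. Deviations from a group mean cancel within the group, so pairs of both signs arise by construction, and a shared litter was not tested. Of 280 genes named in the text, 254 could be tested under all 19 alternatives, and 206 of these kept their direction and their side of the threshold under each; of all 280, 38 lost a call and 10 gained one under at least 1 of them. Col1a1 (0.85) and Eln (0.85) turned without PND1 replicates 2 and 4, Rpl36al (-0.065 and -0.088) under both scalings by total reads, and Snrpd2 (-0.020) under the one outside the erythroid list. Genes whose age difference differed between control and exposed females numbered 4 under total reads, 4 with neither trend nor robust variances and 0 with voom, and 2 to 12 with each library left out in turn; the cause was not tested. The mitochondrially encoded share (PND21 minus PND1, main value 2.10 percentage points) ran from -0.17, without PND1 replicate 4, to 3.77 with each library left out. With 4 against 3 libraries the exact p cannot go under 0.0571, and genes near 10 normalised read counts rest on few reads.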

Other observations

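Among gene types, 144 of 404 antisense genes were higher at PND21 and 51 lower (median log2 fold change 0.52), and 112 of 312 long intergenic noncoding genes were higher and 68 lower, against 3291 higher and 3604 lower of 12977 protein-coding genes. No source used here says whether reads were counted by strand, so antisense reads cannot be told from those of their partners. Of 98 processed pseudogenes 14 were higher and 31 lower, and their reads may be shared with parent genes. At PND21, 29 measured genes had 0 reads in all 3 libraries, among them the sex hormone carrier Shbg (mean 118.7 ± 57.4 at PND1, at least 85.5-fold lower), Nrk (102.9 ± 75.5, at least 74.0-fold) and the neutrophil antigen Ly6g (81.5 ± 46.4, at least 58.7-fold), each against a floor of 3 reads over the group. At PND1, 3 measured genes had 0 reads in all 4 libraries: the long noncoding genes C730036E19Rik and Gm11752 and the processed pseudogene Gm3953. The floor of 3 reads amounted to 0.67 normalised read counts at PND1 and 1.39 at PND21, where libraries were fewer. The counts of 29 and 3 can therefore not be compared directly. Deposited genes averaged at least 10.5 over the 14 libraries, so a gene at 0 in a group was kept through its reads in other groups.

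Of 12 haem synthesis genes, 6 fell while 1 rose (10 and 1 under total reads), the rise being Alas1. Fech (-1.33 ± 0.25), which red cell precursors express strongly, was among those that fell. Of 12 genes of hepatocyte keratins and junctions 4 rose and 2 fell (median 0.06), or 3 and 5 under total reads (median -0.45). Among transcripts of junction proteins, Cldn1 (-2.20 ± 0.21) and Cdh1 (-1.84 ± 0.20) fell, while Cldn3 (1.58 ± 0.16) and Cdh2 (1.37 ± 0.19) rose. Cdh1 marks periportal hepatocytes and also ducts, and it is a member of the cholangiocyte list too. Cela1, an elastase that also marks exocrine pancreas, had 257, 216, 296 and 244 at PND1 and 683, 613 and 967 at PND21 (log2 fold change 1.55 ± 0.19, adjusted p = 0.000102), and it was the tested member of the exocrine pancreas list. The abundant Gm42418, a locus that overlaps ribosomal RNA sequence, held 1.28% to 2.46% of newborn and 1.90% to 5.92% of weanling reads.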
